A study of Mus musculus with 2 samples.

Results

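Basal keratinocytes of the preputial gland (PG) were selected on measured values, as the PG cells with at least 50 Krt5 and Krt14 UMIs (unique molecular identifiers, 1 per captured transcript) per 10000 UMIs, under 50 Dbi UMIs per 10000 and under 50 UMIs per 10000 of Krt1, Krt10, Krtdap and Sbsn together. Cells with 3 or more detected genes of an 8-gene cycling set or of a 5-gene contractile set were left out. The rule held 308 of 4699 PG cells, or 6.55% (95% Clopper-Pearson interval 5.86 to 7.30%), out of 13598 cells in both libraries of the series. The same rule held 2665 of 8899 back skin cells, or 29.9% (29.0 to 30.9%). Intervals here and below cover counting error only, and how many cells of a kind a dissociation releases can set such shares.

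In stratified and glandular epithelium, basal keratinocytes sit on the basement membrane, held by hemidesmosomes that tie the keratin 5 and keratin 14 filaments to integrins and laminins. They divide and give rise to the layers above or, in a sebaceous gland, to sebocytes that fill with lipid and burst. The preputial gland of male rodents is a large gland of sebaceous type that is widely used in place of the small sebaceous glands of the skin.

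Both tissues came from the same 3 male wild type C57BL/6 mice aged 52 weeks, and the labels name no treatment. Material of the 3 mice was pooled, so each tissue was 1 library, no mouse can be told from another, and no test of tissue against tissue exists. Tissue was dissociated with an enzyme kit for whole skin and cells were captured in droplets for sequencing from the 3′ end of transcripts. The barcode table deposited with PG held 737280 barcodes and that with back skin 6794880, although the labels name 1 kit for both. The lists may stand for different versions of the capture chemistry, and an effect of the chemistry on any ratio of PG to skin cannot be told apart from tissue. No barcode was shared between the cells of both libraries, and because the lists differ no conclusion is drawn from that.

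The PG library held 26288071 UMIs and the back skin library 37675226. The 308 PG basal cells held 754716 UMIs, with a median of 2306 UMIs and 1030 genes per cell and 3.77% mitochondrial UMIs. The 2665 skin cells held 7494583 UMIs, with a median of 2494 UMIs and 1012 genes per cell and 2.05% mitochondrial UMIs. Levels are given as UMIs of a gene per 1000000 UMIs (counts per 1000000, CPM) over the summed cells of a group. A gene without a UMI in the PG basal cells was below 3.98 CPM, the level of 3 UMIs.

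The selection cut a continuous range rather than a separate cloud. Members held a median of 60.4 Krt5 and Krt14 UMIs per 10000, from 50.05 to 148, against 113 in skin. Of the members, 149 lay between 50 and 60 per 10000, and 227 PG cells lay just outside, between 40 and 50. Only 17 members passed 100 per 10000, against 1604 of the skin cells, and none passed 200, against 271. On the Dbi axis, 23 members lay between 40 and 50 per 10000 and 23 keratin-positive cells that met every other limit lay between 50 and 60.

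**Figure D1:**
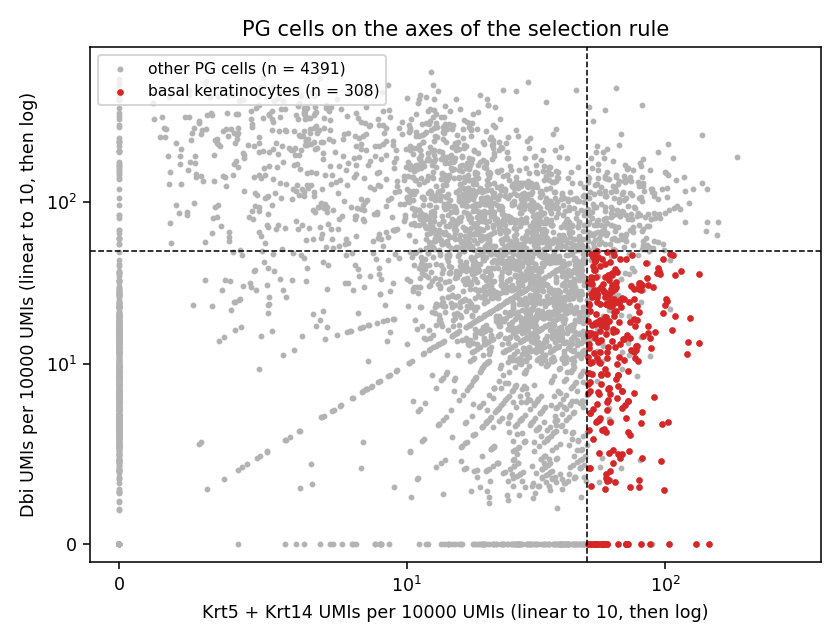
Each point is 1 PG cell, by its Krt5 and Krt14 UMIs (x axis) and its Dbi UMIs (y axis), both per 10000 UMIs, linear up to 10 and logarithmic above; dashed lines mark 50 per 10000. The 308 members (red) adjoin the other cells on both sides of the limits, and grey points inside the lower right field are cells left out by the suprabasal, cycling or contractile limits.

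The label was checked against a list of basal keratinocyte markers, which includes Krt5 and Krt14 of the rule. All 8 were detected. The 6 outside the rule summed to 2828 CPM, against 10900.0 CPM in the skin cells. Krt15, a keratin of basal and stem-like keratinocytes, stood at 1806 CPM. With each cell thinned to 1000 UMIs, 66.2% of members held a Krt15 UMI, against 5.02% of PG fibroblast barcodes, which should lack it. Trp63, the master transcription factor of stratified epithelium, was found in 24.4% of members against 2.75% of fibroblast barcodes. Itga6, the hemidesmosomal integrin chain, was found in 21.4% against 1.62%. These 2 genes did not set the members apart from PG cells just below the keratin limit. Trp63 stood at 323 CPM in those 227 cells and 344 CPM in the 149 members nearest the limit. Itga6 stood at 245 CPM and 233 CPM in the same groups. Krt15 was lower below the limit, at 1402 CPM against 1751 CPM.

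Markers of other cells were counted in the members as whole lists. Fibroblast markers summed to 59.6 CPM with 5 of 7 detected, led by Dcn at 42.4 CPM, while Col1a1 and Lum had no UMI. Immune markers summed to 63.6 CPM with 8 of 10 detected, led by Cd74, while Ptprc and Laptm5 had no UMI. Endothelial (13.3 CPM), Schwann (11.9 CPM), red blood cell (6.63 CPM), skeletal muscle (3.98 CPM) and melanocyte (1.33 CPM) markers were lower still. Skin cells of the same rule held more red blood cell (894 CPM), fibroblast (348 CPM), skeletal muscle (195 CPM) and melanocyte (55.4 CPM) markers. Hbb-bs, a globin, and Tnnc2, a muscle troponin, were among the 10 genes lowest in PG against skin, and the part of such RNA in other ratios was not tested.

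Markers of 4 other classes were more abundant, and each of these lists summed to more in PG than in skin. Suprabasal keratinocyte markers summed to 5191 CPM against 4561 CPM in skin, led by Ly6d, a surface protein of keratinocytes, at 3356 CPM against 2465 CPM, and the 3 markers outside the rule to 4701 CPM against 3690.0 CPM. Of the members, 133 held 3 or more of the 7. Follicle or duct markers summed to 3392 CPM against 1660.0 CPM, led by Krt17, with 3 or more found in 91 members, while Lhx2, Lgr5, Krt24, Lef1 and Msx2 had no UMI. Contractile markers summed to 415 CPM against 17.1 CPM in skin, with Tagln, an actin-binding protein, at 288 CPM and smooth muscle actin Acta2 at 109 CPM, while Myh11, Actg2 and Mylk had no UMI. Nearly all of this came from genes that the rule limits: the 4 contractile markers outside it summed to 2.65 CPM against 8.94 CPM in skin. Such genes could pass, since 88 members held 1 or 2 of the 5 contractile genes the rule limits. Sebocyte markers summed to 1120.0 CPM, against 121 CPM in skin, with 9 of 10 detected, led by Mgst1 at 775 CPM, with Elovl3 at 0 UMIs. The same list summed to 7385 CPM in the free RNA of PG, taken from barcodes of at most 100 UMIs.

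In the comparison with back skin, 1145 of 6208 genes with at least 20 CPM in either tissue (18.4%) were past 2-fold higher in PG with a counting interval of the ratio that excluded 1, and 863 (13.9%) were past 2-fold lower. The median log2 ratio of all tested genes was 0.12. A gene is called higher or lower below only in this sense, as a difference between 2 libraries. The shares of all genes, 18.4% higher and 13.9% lower, are the background for each reported list count against skin. A gene that reached 20 CPM in only 1 tissue could be called in only 1 direction. List counts that hold such genes are descriptions.

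The keratins differed in both directions. Of 7 tested keratins outside the rule, 3 were higher and 3 lower in PG, and the median log2 ratio was 0.32. Krt15 stood at 1806 CPM in PG and 8288 CPM in skin, a log2 ratio of -2.20 (95% interval -2.28 to -2.12). Krt17, a keratin of ducts, follicles and injured epidermis, stood at 2400 CPM and 1013 CPM, a log2 ratio of 1.24 (1.17 to 1.32). Krt6a, a further keratin of appendages and wounds, stood at 444 CPM and 146 CPM, a log2 ratio of 1.60. Both turned direction over the larger of the 2 clusters of members described further on, with log2 ratios of -1.05 and -0.72, and the log2 ratio of Krt17 was 0.51 over cells with matched keratin levels. Krt8, a keratin of simple and luminal epithelium, had 107 CPM in PG and 0.93 CPM in skin, and a UMI in 7.47% of thinned members against 0.49% of PG fibroblast barcodes. Krt5 and Krt14, on which cells were chosen, stood at 2960.1 CPM and 3559 CPM in PG and at 4386 CPM and 8544 CPM in skin, and are not counted.

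Genes of the hemidesmosome, integrins and basement membrane leaned towards lower levels in PG: of 18 tested, 6 were lower and 1 was higher, with a median log2 ratio of -0.48. Of all genes, 13.9% were lower and 18.4% higher. Col17a1, the transmembrane collagen of hemidesmosomes, stood at 266 CPM (95% Poisson interval 231 to 306) against 1657 CPM in skin, a log2 ratio of -2.64 (-2.85 to -2.44). Lamb3, a chain of the laminin that anchors the epidermis, had a log2 ratio of -1.38, and Itga2 and Itga3, integrin chains that bind collagen and laminin, had -3.31 and -1.13. Dst, the plakin that links keratin to the hemidesmosome, lay at the limit with -1.003. Itgb4, the partner chain of Itga6 in that structure, was not past 2-fold, at 117 CPM and 124 CPM, with a log2 ratio of -0.09 (-0.43 to 0.22). Cd151, a tetraspanin that associates with laminin-binding integrins, was the higher one, at 101 CPM against 49.8 CPM.

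Because the skin cells held more Krt5 and Krt14, the comparison was repeated over cells with 50 to 100 per 10000 in both tissues, 291 in PG and 1061 in skin. This set a shared keratin range but did not match the levels within it. Of these cells, 149 in PG and 209 in skin lay between 50 and 60 per 10000. Over the shared range Col17a1 had a log2 ratio of -2.47, and 5 of 19 tested genes of the list were lower and 0 higher.

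**Figure D2:**
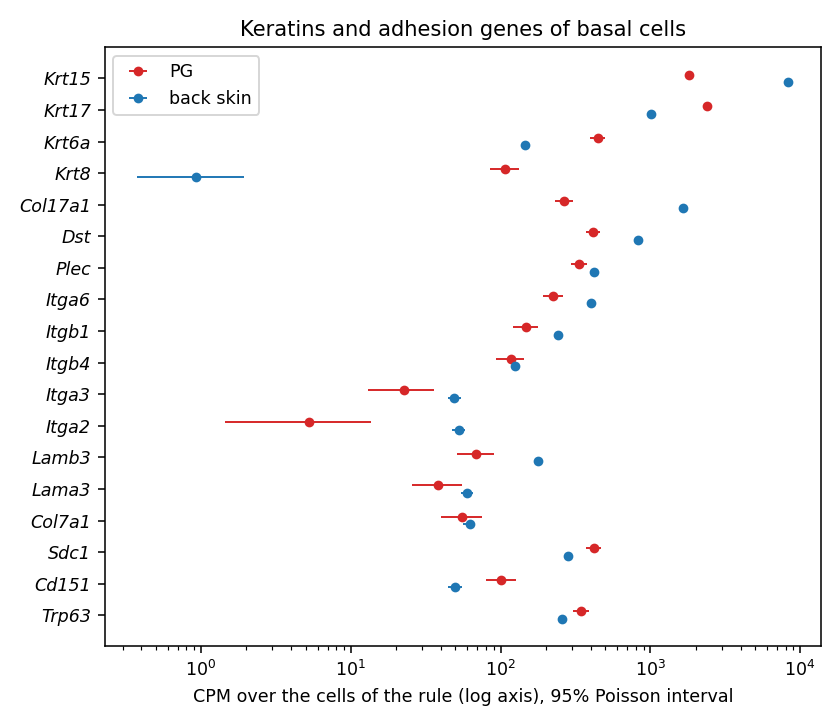
Levels of keratins outside the rule, adhesion genes and Trp63 in basal keratinocytes of PG (red) and back skin (blue), in CPM on a log axis, with 95% Poisson intervals from the summed UMIs of each library. Krt15 and Col17a1 were lower in PG, Krt17, Krt6a and Krt8 were higher over all members, and Itgb4 and Col7a1 overlapped. The ratios of Krt17 and Krt6a turned direction over the larger cluster alone, that of Krt6a not past 2-fold.

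Of 20 tested desmosome, adherens and gap junction genes, 5 were higher in PG and 0 lower, where 18.4% and 13.9% of all genes were. Over cells of the shared keratin range 3 of 20 were higher and 1 lower. With cells that carried 3 or more follicle markers left out of both tissues, 4 of 19 were higher and 1 lower. Perp, a desmosomal membrane protein, had 1020.3 CPM in PG and 1018 CPM in skin, and E-cadherin (Cdh1) had 212 CPM and 204 CPM. Among the higher genes, the desmocollin Dsc2 stood at 34.5 CPM against 1.60 CPM and the connexin Gjb6 at 30.5 CPM against 3.87 CPM. Dsc2 and Gjb6 reached 20 CPM in PG only, so their direction followed from that filter.

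Transcription factors of epidermis and glands gave 8 of 28 tested higher and 8 lower, where 18.4% and 13.9% of all genes were, with a median log2 ratio of 0.47. Over cells of the shared keratin range 6 of 29 were higher and 10 lower, and the median was -0.67. Trp63 stood at 346 CPM and 256 CPM, not past 2-fold. Ehf, an epithelial factor of the ETS family, stood at 203 CPM and 22.02 CPM, Cebpb, which acts in keratinocyte and sebocyte differentiation, at 501 CPM and 131 CPM, and Sox9, a factor of hair follicle and gland progenitors, at 323 CPM and 110 CPM. Sox7 (log2 ratio 2.43), Myc (1.37), Foxq1 (1.19) and Cebpa (1.07) were also higher. The lower factors included Hopx at 3.98 CPM against 216 CPM, the barrier factor Klf4 at 33.1 CPM against 452 CPM, Gata3 at 37.1 CPM against 274 CPM and Klf5 at 49.0 CPM against 340.4 CPM. In fibroblast barcodes Klf4 had 416 CPM in PG and 778 CPM in skin.

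Among the 10 genes with the highest ratio was Hoxa9, a positional homeobox gene, with 53.0 CPM against 0.13 CPM. It stood at 108 CPM in PG free RNA and 15.9 CPM in PG fibroblast barcodes, and a UMI was found in 6.17% of thinned members against 1.46% of fibroblast barcodes. Of 10 tested Hox genes, a set chosen after values were seen, 5 were higher (Hoxa9, Hoxd4, Hoxd8, Hoxd9 and Hoxd11) and 5 lower (Hoxa5, Hoxa7, Hoxb2, Hoxb7 and Hoxc8). Each of the 10 reached the 20 CPM needed for testing in PG or in skin but not in both. Its direction followed from that filter, so these counts are a description. Hox genes under 20 CPM in both tissues were not tested. Hoxd9 had 33.1 CPM against 0.27 CPM, while Hoxa7 had 19.9 CPM in PG and 65.5 CPM in skin.

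Genes tied to stem and progenitor cells of the hair follicle and sebaceous unit were mostly lower, 8 of 14 tested, with 1 higher. Lgr6, Krt24, Lhx2 and Grem1 had no UMI in the 308 cells and between 24.6 CPM and 45.8 CPM in skin. They reached 20 CPM in skin only, so their direction followed from that filter and the list count is a description. Without the skin cells that carried 3 or more follicle markers, 4 of 11 tested were lower and 2 higher, and the median log2 ratio went from -1.78 to 0.13. With such cells left out of both tissues, 4 of 10 were lower and 2 higher, with a median of -0.53. Lhx2, Krt24 and Postn of this list are themselves among the follicle markers, so the filter removed cells for holding genes that were then counted. Lrig1, a regulator of stem cell quiescence in the junction of follicle and gland, stood at 50.4 CPM and 34.3 CPM, not past 2-fold. Sostdc1, a Wnt and BMP antagonist, had 102 CPM and 125 CPM.

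Wnt, BMP and TGF-beta genes were lower in PG in 11 of 20 tested and higher in 2, with a median log2 ratio of -1.82. Among ligands, Wnt4 stood at 37.1 CPM against 218 CPM, Wnt3 had no UMI against 63.2 CPM, a ratio at least 15.9-fold lower, and Wnt7b had 1.33 CPM against 41.8 CPM. Axin2, a target and brake of Wnt signalling, had 3.98 CPM against 36.8 CPM. Tgfbi, a matrix protein induced by TGF-beta, had 27.8 CPM against 307 CPM. The higher genes were the Wnt antagonist Sfrp1, at 197 CPM against 60.7 CPM, and the ligand Bmp7, at 78.2 CPM against 10.8 CPM. Of these, Wnt3, Wnt7b and Axin2 reached 20 CPM in skin only and Bmp7 in PG only. The direction of each followed from that filter. With follicle-marked cells left out of the skin cells, 11 of 19 were lower and 2 higher.

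EGF, FGF and Notch genes gave 8 of 20 lower and 2 higher, where 13.9% and 18.4% of all genes were. Igfbp3 and Igfbp2, which bind insulin-like growth factors, went opposite ways. Igfbp2 stood at 1113 CPM in PG and 1.20 CPM in skin, with a UMI in 57.8% of thinned members against 5.18% of PG fibroblast barcodes. Igfbp3 stood at 7.95 CPM in PG and 603 CPM in skin. The EGF receptor ligand Epgn had no UMI against 91.4 CPM, and Hbegf had 57.0 CPM against 191 CPM, while the receptor Egfr stood at 121 CPM and 80.9 CPM, not past 2-fold.

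Secreted defence proteins held the largest ratio of the 2934 genes ranked. Lcn2, lipocalin 2, which withholds bacterial iron carriers, stood at 2198 CPM in PG (2094 to 2307) against 2.001 CPM (15 UMIs) in skin, a log2 ratio of 10.10 (9.37 to 10.94). The skin value rests on those 15 UMIs. The log2 ratio of Lcn2 was 12.27 with doublets removed and 12.94 without barcodes holding markers of other cells. It was 11.74 with keratins of at least 100 per 10000 and 8.65 over the shared keratin range. Lcn2 was also spread through the PG library, at 948 CPM in free RNA and 954 CPM in fibroblast barcodes, and the thinned share of cells with a UMI was 71.4% in members against 21.7% in fibroblast barcodes. Defb1, a beta-defensin, stood at 595 CPM against 33.9 CPM, the protease inhibitor Slpi at 307 CPM against 1.20 CPM, Wfdc18 at 329.9 CPM against 5.47 CPM, and the peptidoglycan-binding Pglyrp1 at 95.4 CPM against 1.20 CPM. Slpi also stood at 334 CPM in PG free RNA and 43.7 CPM in PG fibroblast barcodes. Other genes of the same list were lower. Il33, an alarmin, had 1 UMI in PG (1.33 CPM) against 104 CPM, the decoy receptor Il1r2 1.33 CPM against 90.6 CPM, and the cytokine Tslp 1.33 CPM against 29.4 CPM, while the alarmin S100a8 was higher, at 29.2 CPM against 8.81 CPM. Over the whole list of 18 tested, 9 were higher and 5 lower. Its median log2 ratio of 1.03 was -0.10 with each cell thinned to 1000 UMIs and -0.20 over the cells of the shared keratin range.

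The lowest ratios included genes of skin keratinocytes. Serpinb2, a serine protease inhibitor of keratinocytes, had no UMI in PG against 1430.5 CPM in skin, a ratio at least 359.9-fold lower, and Capns2, a calpain subunit, had no UMI against 367 CPM. The glycerol channel Aqp3 had 1.33 CPM against 180.1 CPM.

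Early differentiation genes outside the rule were lower in 7 of 16 tested and higher in 4. Lgals3, a galectin, stood at 170 CPM against 1040 CPM and Sfn, the keratinocyte 14-3-3 protein, at 727 CPM against 2258 CPM, whereas Sprr1a, a cornified envelope precursor, stood at 612 CPM against 14.8 CPM, Calml3 at 349.8 CPM against 32.0 CPM and the cathepsin inhibitor Cstb at 2462 CPM against 381 CPM. Over the larger cluster of members alone Sprr1a stood at 24.3 CPM, not past 2-fold. Krt1, Krt10, Krtdap and Sbsn belong to the rule and are not counted.

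Glutathione, aldehyde and redox genes were higher in PG in 22 of 29 tested and lower in 0, and their median log2 ratio was 1.71, set against 18.4% of all genes. Gclm and Gclc, the subunits of the enzyme that limits glutathione synthesis, stood at 476 CPM against 27.4 CPM and at 92.8 CPM against 18.3 CPM. Gpx2, a glutathione peroxidase of mucosal epithelium, stood at 270.3 CPM against 6.67 CPM, and the glutathione transferases Gsta3 at 88.8 CPM against 0.93 CPM and Gstm5 at 188 CPM against 65.6 CPM. The carbonyl reductase Cbr2 stood at 433 CPM against 35.9 CPM, the aldehyde dehydrogenase Aldh3a1 at 298 CPM against 57.6 CPM, and Cyp2f2, a cytochrome P450, at 288 CPM against 0.93 CPM. Cyp2f2 also stood at 309.5 CPM in PG free RNA and 153 CPM in PG fibroblast barcodes. Gsta, Gstm and Gstp genes have close paralogs that can share reads, so single values among them are uncertain.

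Redox genes were also higher in PG in the fibroblast barcodes, where the part of free RNA was not tested. In fibroblast barcodes 12 of 33 tested were higher in PG and 0 lower, where 9.51% and 8.72% of all genes were past 2-fold higher and lower. Gstp1 stood at 144 CPM in PG basal cells and at 234 CPM in PG fibroblast barcodes. For Gpx2 the thinned share of cells with a UMI was 15.3% in members and 0.81% in fibroblast barcodes, for Cbr2 it was 28.6% and 3.40%, and for Gclm 34.7% and 14.2%.

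The promoter windows of this list, 250 bases before to 50 after the RefSeq start (GRCm38.p6), were searched on both strands for the core of the antioxidant response element, TGACNNNGC, because so many of these genes were higher together. Of 30 genes of the list with a window, 7 (23.3%) held it, Gsta3, Gstm5, Gclm, Prdx1, Txnrd1, Sod1 and Cyp4f39, against 13.99% of all 27025 genes with a window. Of the 7, Txnrd1, Sod1 and Cyp4f39 were not among the genes called higher, and 4 of 17 higher genes with a window held the motif. A match is a description of the letters and not a site. The windows of the 3 matched genes with the highest of the ratios above, Gclm, Gsta3 and Gstm5, are shown with the match in capitals, at chr3:122245307-122245606, chr1:21240335-21240634 and chr3:107895604-107895903, all on the plus strand.
Gclm: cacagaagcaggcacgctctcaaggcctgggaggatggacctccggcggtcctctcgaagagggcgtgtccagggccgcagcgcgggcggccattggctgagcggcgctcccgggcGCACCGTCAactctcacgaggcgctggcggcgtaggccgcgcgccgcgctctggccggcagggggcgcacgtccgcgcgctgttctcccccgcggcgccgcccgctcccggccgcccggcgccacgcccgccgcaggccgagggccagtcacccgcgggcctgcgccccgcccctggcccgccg
Gsta3: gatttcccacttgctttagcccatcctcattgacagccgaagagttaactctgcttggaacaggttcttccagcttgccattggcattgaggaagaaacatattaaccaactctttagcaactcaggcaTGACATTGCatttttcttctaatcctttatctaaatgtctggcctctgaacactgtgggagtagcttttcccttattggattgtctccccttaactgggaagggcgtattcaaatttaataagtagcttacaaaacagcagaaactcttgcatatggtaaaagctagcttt
Gstm5: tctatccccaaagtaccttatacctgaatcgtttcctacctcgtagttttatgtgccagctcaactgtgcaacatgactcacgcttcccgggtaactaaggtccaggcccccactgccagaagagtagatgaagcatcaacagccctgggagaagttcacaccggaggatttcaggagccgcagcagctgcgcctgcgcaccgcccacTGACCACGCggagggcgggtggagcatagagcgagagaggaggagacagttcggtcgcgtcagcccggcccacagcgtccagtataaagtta
In Gclm the match lay on the minus strand, 134 bases before the start, and in Gsta3 and Gstm5 on the plus strand, 121 and 42 bases before it.

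Immediate early and heat shock genes were the list with the lowest median, a log2 ratio of -2.07. Of 29 tested, 21 were lower in PG and 1 higher, where 13.9% and 18.4% of all genes were. These genes answer growth signals and stress within minutes, tissue dissociation included. Fos stood at 58.3 CPM in PG basal cells and 1360 CPM in skin basal cells, Fosb at 30.5 CPM and 752 CPM, Jun at 264 CPM and 2282 CPM, Junb at 114 CPM and 890 CPM, and Atf3 at 98.1 CPM and 1213 CPM. Fosl1 had 1.33 CPM against 117 CPM. Egr1 stood at 158 CPM against 662 CPM, whereas its relative Egr2 was the higher one, at 154 CPM against 40.7 CPM. In fibroblast barcodes of the same libraries 1 of 28 tested was lower and 2 were higher, where 8.72% and 9.51% of all genes were. Egr2 was among the higher there too, and Fos stood at 815 CPM in PG and 747 CPM in skin. In immune barcodes 5 of 28 were higher and 4 lower, where 9.27% and 18.8% of all genes were. The thinned share of cells with a Fos UMI was 3.25% in PG basal cells, 33.5% in PG fibroblast barcodes and 41.7% in skin basal cells. Basal cells and fibroblast barcodes of a tissue came from the same library, and with 1 library per tissue the difference between the cell types was not tested.

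**Figure D3:**
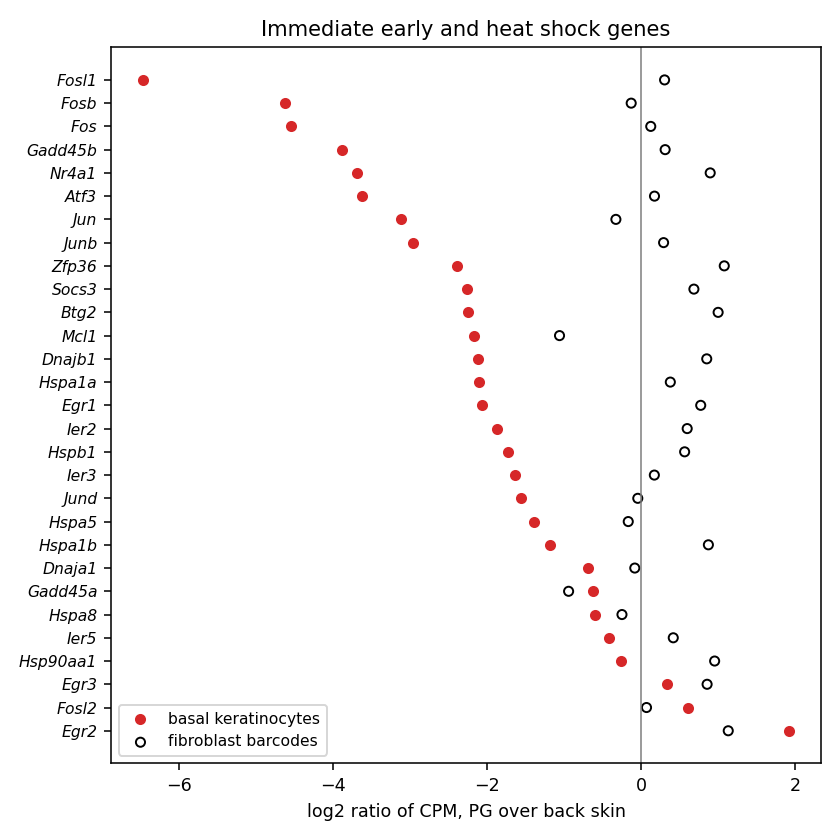
Log2 ratio of CPM in PG over back skin for the 29 immediate early and heat shock genes, in basal keratinocytes (red) and fibroblast barcodes (open circles). Fos lay at -4.54 in basal cells and at 0.13 in fibroblast barcodes, and Egr2 was past 2-fold higher in PG in both.

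Sebocyte lipid genes were higher in PG in 10 of 17 tested and lower in 1, with a median log2 ratio of 1.14. Cck, the peptide hormone cholecystokinin, stood at 853 CPM against 1.87 CPM, with a UMI in 44.5% of thinned members against 5.66% of PG fibroblast barcodes. Others stood close to or below what PG fibroblast barcodes held. Mgst1, a microsomal glutathione transferase, stood at 775 CPM in members and 741 CPM in fibroblast barcodes, with 52.9% and 48.9% of thinned cells holding a UMI. The desaturase Scd1 stood at 121 CPM in members and 188 CPM in fibroblast barcodes, with 3194 CPM in free RNA. A Scd1 UMI was found in 10.7% and 16.2% of thinned cells, so no expression in the members is read from it. Scd1 was past 2-fold higher in them than in suprabasal PG cells, where it had 1 UMI. The lipid droplet protein Plin2 stood at 150 CPM and 127 CPM. With 5% of free RNA subtracted, 6 of 16 tested were higher and 2 lower.

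Mevalonate and sterol genes gave 3 of 13 higher and 4 lower, where 18.4% and 13.9% of all genes were, with a median log2 ratio of -0.35. With 5% of free RNA subtracted, 2 of 13 were higher and 8 lower, and the median was -1.25. Thinning each cell turned the balance the other way, with 5 of 14 higher and 3 lower and a median of -0.28. The synthesis enzyme Cyp51 (13.2 CPM against 83.5 CPM) was lower, and the lipogenic factor Srebf1 (151 CPM against 26.7 CPM) was higher. Idi1, the isopentenyl diphosphate isomerase, was higher at 290 CPM against 47.2 CPM, but held 12082 CPM in PG free RNA and 420.3 CPM in PG fibroblast barcodes. Its thinned share of cells with a UMI, 23.1% in members, lay below the 34.5% of fibroblast barcodes, so no expression is read from it, and its log2 ratio of 2.62 became -3.43 with 5% of free RNA subtracted.

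Of 12 tested androgen, steroid and retinoid genes, 5 were higher and 0 lower. Crabp2, which carries retinoic acid inside cells, stood at 166 CPM against 7.07 CPM, though at 13.5 CPM and not past 2-fold over the larger cluster of members, and the estrogen receptor Esr1 at 30.5 CPM against 2.13 CPM. In the remaining lists, sphingolipid genes gave 2 of 11 higher and 3 lower, MHC genes 1 of 14 each way, protease and inhibitor genes 5 of 15 higher and 4 lower, and replication genes outside the rule 3 of 18 each way. Of all genes, 18.4% were higher and 13.9% lower, and no direction of these lists is read from the counts. Cyclin D1 (Ccnd1) was lower, at 5.30 CPM against 188 CPM, and the replicative helicase gene Mcm2 was higher, at 35.8 CPM against 9.21 CPM. Of the 22 genes of the luminal gland list only 3 were tested, Krt8, Ltbp2 and Slc12a2, and all 3 were higher. Krt8 reached the level needed for testing in PG but not in skin, so its direction followed from that filter. The count is a description, and no direction of the whole list is read from it.

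**Figure D4:**
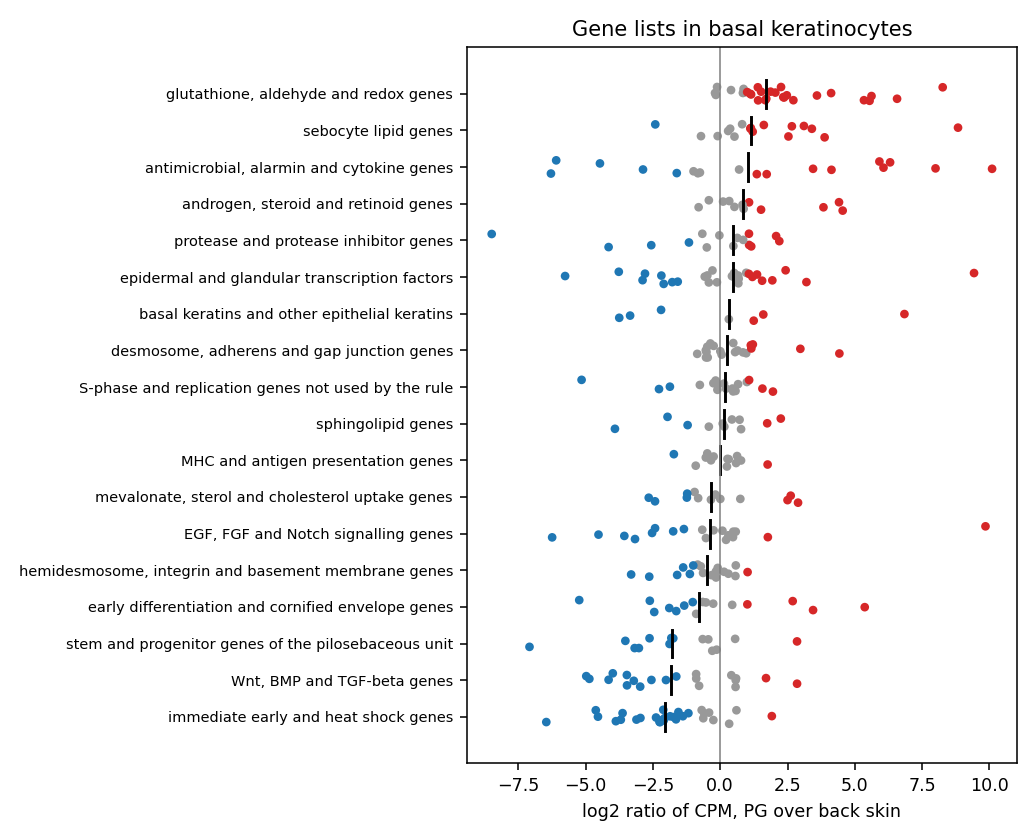
Log2 ratio of CPM in PG over back skin basal keratinocytes for the tested genes outside the rule of each list with 5 or more of them; red and blue points are past 2-fold higher and lower with an interval excluding 1, grey points are neither, and black bars are medians. The lists run from a median of -2.07 (immediate early and heat shock genes) to 1.71 (glutathione, aldehyde and redox genes).

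Within PG, the basal cells were set against the keratin-positive cells that passed the Dbi limit (125 cells, 413420 UMIs). Since Dbi set these groups apart and travels with sebocyte genes, what follows is a description. Of 5912 genes tested, 319 (5.40%) were past 2-fold higher in the basal cells and 292 (4.94%) lower. In the hemidesmosome and integrin list 8 of 17 tested were higher in the basal cells and 0 lower, with Col17a1 at 266 CPM against 89.5 CPM and Itgb1, the common integrin beta chain, at a log2 ratio of 1.60. Igfbp5 (54.3 CPM) and caveolin Cav1 (50.4 CPM) were among the highest, against 1 UMI each (2.42 CPM) in the Dbi-high cells. Igfbp5 stood at 1372 CPM in PG fibroblast barcodes. The fibroblast marker Dcn (42.4 CPM against 9.68 CPM), the immune marker Cd74 (41.1 CPM against 16.9 CPM) and 4 of 12 tested MHC genes were higher in the basal cells too, and the part of other cells' RNA in these ratios was not tested. Dcn stood at 74.2 CPM in the 149 members with keratins of 50 to 60 per 10000 and at 8.82 CPM in the 142 with 60 to 100. Cd74 went the other way, at 26.5 CPM and 61.7 CPM. Tagln, at 288 CPM against 38.7 CPM, belongs to the contractile set that the rule limits in both groups. Sebocyte lipid genes were lower in 8 of 20 tested and higher in 1. Krt79, a keratin of sebaceous ducts, stood at 130 CPM against 1957 CPM, Defb6 at 437 CPM against 4869 CPM, and Cst6, an inhibitor of cysteine proteases, at 2219 CPM against 23516 CPM. Cst6 was uneven within the members, at 257 CPM in the 113 members under 10 Dbi UMIs per 10000 and 11807 CPM in the 23 members between 40 and 50. The bins between held 2812 CPM, 546 CPM and 3040 CPM, so the rise was not steady. As many as 200 Cst6 UMIs lay in 1 thinned member, and the part of single cells in these levels was not tested. Cst6 also stood at 7486 CPM in PG free RNA and 606 CPM in PG fibroblast barcodes.

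The levels along the Dbi axis had no step at the limit of the rule. Krt15 stood at 2411 CPM in the 113 members under 10 Dbi UMIs per 10000, at 996 CPM in the 23 members between 40 and 50, at 741 CPM in the 49 cells between 50 and 75 and at 294 CPM in the 45 cells above 100. Col17a1 went from 344 CPM to 190 CPM within the members and to 42.0 CPM above 100. Krt79 went from 30.2 CPM to 490 CPM within the members and to 3017 CPM above 100. Awat2, a wax ester synthase of late sebocytes, stayed at or below 27.0 CPM inside the limit and reached 2387 CPM above 100. Tagln, limited by the rule in every bin, stood at 370 CPM under 10 and at 111 CPM between 40 and 50.

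**Figure D5:**
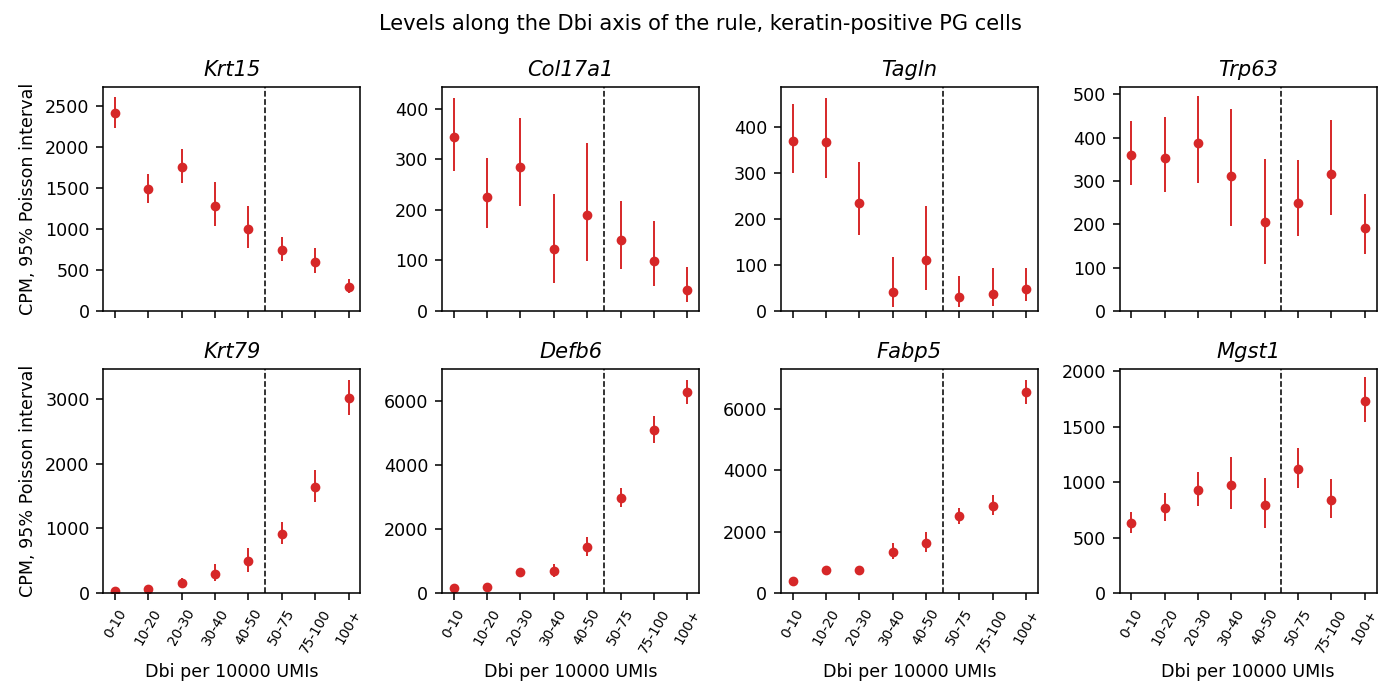
Levels (CPM, 95% Poisson interval) in keratin-positive PG cells that met the other limits, by Dbi UMIs per 10000; the dashed line is the limit of the rule, with 5 bins of members to its left. Krt15, Col17a1 and Tagln (a gene the rule limits in every bin) are highest at low Dbi, and Krt79, Defb6 and Fabp5 at high Dbi.

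Only 25 suprabasal PG cells (78971 UMIs) met the matching rule, so a level of 0 there means below 37.99 CPM. In these cells 2 UMIs (25.3 CPM) were enough for a gene to be tested. Since the suprabasal limit of the rule set the groups apart, what follows is a description. Of 6264 genes tested, 220 (3.51%) were past 2-fold higher in the basal cells and 340 (5.43%) lower. The same contrast in skin gave 113 of 5529 genes (2.04%) higher and 156 (2.82%) lower. Krt15 stood at 1806 CPM in basal and 114 CPM in suprabasal cells, Aldh3a1 at 298 CPM and 12.7 CPM (log2 ratio 4.56, 2.06 to 9.87), and Bcam, a laminin receptor, at 166 CPM and 12.7 CPM (3.71, 1.20 to 9.02). The 12.7 CPM is 1 UMI for each, so both ratios are loosely bounded. Krt16, a keratin of activated epidermis, stood at 15.9 CPM and 494 CPM, and Ly6g6c at 34.5 CPM and 1444 CPM. Mevalonate and sterol genes were lower in the basal cells in 8 of 17 tested and higher in 0, and hemidesmosome genes were higher in 5 of 17 and lower in 0.

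The members also varied among themselves. Over 1127 genes, in cells thinned to 1000 UMIs, the ratio of variance to mean had a median of 1.05, where counting alone gives about 1. It was 97.2 for Cst6, which had a UMI in 26.6% of members and as many as 200 in 1 cell, 5.803 for Krt17, 4.98 for the metallothionein Mt1, 4.78 for Fabp5, 4.70 for Defb6, 4.68 for Sprr1a, 4.33 for Slpi, 3.89 for Krt6a and 3.14 for Cstb. The 15 most variable genes also held Gm42418 (15.8) and AY036118 (3.63), which overlap ribosomal RNA sequence, Lars2 (4.64), Gm26917 (3.52), the heat shock protein Hspb1 (3.24) and the apolipoprotein Apoe (3.13). Cst6 was also abundant in PG free RNA (7486 CPM), and the part of free RNA in its variance was not tested. Trp63 (1.02), Itga6 (1.01) and Col17a1 (1.07) varied about as counting alone would give, at levels where such variation is hard to see.

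Clustering on 2000 variable genes divided the members into a cluster of 164 cells (53.3%, median 2121 UMIs) and one of 144 cells (46.8%, median 2471 UMIs). The genes that lead the clusters took part in defining them and are given as a description. The first was led by Cyp2f2, Matn2, Ermp1, Tgm2 and Adh1, with Cyp2f2 at 548 CPM against 36.5 CPM. The second was led by Sprr1a (1180.0 CPM against 24.3 CPM), 2610528A11Rik, AA467197, Gjb2 and Crabp2. Krt17 stood at 488 CPM in the first and 4244 CPM in the second, Krt6a at 89.0 CPM and 786 CPM, and Cst6 at 240.1 CPM and 4130 CPM, while Cck stood at 1276 CPM and 445 CPM, Mgst1 at 1122 CPM and 440.1 CPM, and Plin2 at 256 CPM and 46.9 CPM. Pparg, the nuclear receptor of sebocyte differentiation, had 29.7 CPM in the first and no UMI in the second. Of the basal genes, Krt15 stood at 1840 CPM and 1773 CPM and Col17a1 at 262 CPM and 271 CPM by cluster. Lcn2 stood at 2231 CPM and 2167 CPM, beside 3401 CPM in the Dbi-high cells.

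The second cluster held more follicle or duct markers (5619 CPM against 1084 CPM), suprabasal markers (7583 CPM against 2714 CPM), contractile markers (628 CPM against 194 CPM) and fibroblast markers (112 CPM against 5.40 CPM). The contractile difference came from genes that the rule limits. The contractile markers outside the rule summed to 5.40 CPM in the first cluster and 0 CPM in the second. The first held more sebocyte markers, at 1624 CPM against 633 CPM. The 6 basal markers outside the rule summed to 2897 CPM in the first and 2760.0 CPM in the second. Of 61 named genes past 2-fold higher than skin over all members, 11 were not over the first cluster alone (Cd151, Cldn4, Crabp2, Cst3, Cst6, Fabp5, H2-Ab1, Krt17, Krt6a, Sprr1a and, from the rule itself, Krtdap) and 4 were not over the second (Cers2, Hsd17b4, Sfrp1 and Sphk1). Over the first the log2 ratios of Cst6 and Fabp5 were -0.35 and -1.503. Those of Col17a1 were -2.66 and -2.61 and those of Lcn2 10.12 and 10.08 in the first and second.

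The same split was looked for in the 818 PG cells with 25 to 50 Krt5 and Krt14 UMIs per 10000 that met the other limits and had no part in the clustering. In the 362 of them with a Krt17 UMI, the 10 leading genes of the first cluster summed to 1069 CPM and the 10 of the second, Cst6 among them, to 5661 CPM. In the 456 without a Krt17 UMI the sums were 3533 CPM and 489 CPM. Krt15 stood at 1301 CPM and 1330 CPM in these groups.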

How the data were processed

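Cells of 1 PG and 1 back skin library were analysed, each pooled from 3 mice. Per the labels and the file headers, the authors processed reads with Cell Ranger (version 4 in the headers) and mouse build mm10 and deposited raw UMI count matrices of all barcodes, so free RNA was not removed before deposit. Barcodes with at least 500 genes, 1000 UMIs and at most 10% mitochondrial UMIs were kept, and doublets were not removed in the reported values. UMIs were summed per group as CPM, with exact Poisson intervals, and ratios had exact conditional binomial 95% intervals. A group with 0 UMIs was set to 3 counts, and a ratio that then had no direction was left out. Genes under 20 CPM in both groups were not tested. Members of the selection, gene lists and comparisons were chosen with earlier results of these data known. Named genes were, per list, up to 4 with the highest and 4 with the lowest PG over skin ratio and 3 with the highest level, the 10 most extreme genes per comparison at 50 CPM and 10% of cells, the 15 most variable genes, and 5 leading genes per cluster. Hox genes other than Hoxa9, and any gene named for its place in a list outside these, were chosen after their values were seen. Some genes that this rule names are not reported here. Fibroblast and immune barcodes were PG or skin cells with at least 3 markers of that class. Members were clustered on 2000 variable genes, 20 principal components and 15 neighbours by the Leiden method at resolution 0.5. The ratio step was tested on simulated counts. Python 3.11.15, scanpy 1.11.5, scipy 1.17.1 and igraph 0.11.9 were used.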

Additional observations from a re-analysis of the deposited data

Results flagged for a closer look

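Gjb2, the connexin 26 gene, differed in direction between the tissues: its log2 ratio of basal over suprabasal cells was -1.80 in PG and 1.004 in back skin. The PG value rests on 25 suprabasal cells of 1 library, and the difference between the tissues was not tested.

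A further 30 PG barcodes met the rule but were left out for passing 10% mitochondrial UMIs. They held a median of 15.8% mitochondrial UMIs and 1516 UMIs per cell, with Krt15 at 1627 CPM, Krt17 at 1966 CPM, Lcn2 at 2016 CPM and Fos at 169 CPM.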

How the results depend on the processing

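In all, 21 alternatives were run (17 planned and 4 added after seeing the data). Those that moved the number of members or a count over all genes by over 1.5 times, or turned the direction of a gene past 2-fold, follow. Counts per list also moved and are given only in part. Over the shared keratin range, protease and inhibitor genes gave 3 of 15 higher and 4 lower, and MHC genes 3 of 14 higher and 1 lower. Of 3397 ratios to skin recomputed for 181 named genes, a further 637 lay outside the counting interval of the reported ratio and are not listed. The 308 members became 160 with at least 1000 genes and 2000 UMIs, 17 with keratins of at least 100 per 10000 and 1126 with at least 25. For PG against skin (1145 higher, 863 lower), keratins of at least 100 left 164 lower, a minimum of 5 CPM gave 1907 higher and a minimum of 50 CPM gave 586 higher and 447 lower. For basal against suprabasal cells (220 and 340), keratins of at least 100 gave 17 and 76, keratins of at least 25 gave 1006 and 525, Dbi under 25 gave 90 higher, and thinning gave 57 and 215. For basal against Dbi-high cells (319 and 292), keratins of at least 100 gave 65 and 44, keratins of at least 25 gave 112 and 153, thinning gave 98 higher and a minimum of 50 CPM gave 149 and 172. Fewer cells or genes enter under the stricter limits. Other causes were not tested.

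Of 2209 ratios to skin recomputed for the 118 named genes past 2-fold, 11 turned direction. They were Fabp4 without barcodes holding markers of other cells (0.68), Idi1 with 5% free RNA subtracted (-3.43), Cldn4 with follicle-marked cells left out of both tissues (-0.060), Cldn4 (-0.82), Cst6 (-0.35), Fabp5 (-1.503), H2-Ab1 (-0.055), Krt17 (-1.05), Krt6a (-0.72) and Krtdap (-0.28) over the first cluster alone, and Sphk1 (-0.30) over the second, all as log2 ratios. The cause was not tested. No paired analysis was possible because each tissue was 1 pooled library with no replicate.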
